A study of Gallus gallus with 24 samples.

Results

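The dermal papilla of the sickle feather follicle was compared between male and female adult chickens. The comparison rests on 4 of the 24 libraries of the series, namely all those labelled as male or female dermal papilla: 2 male libraries (male 1 is bird 53, male 2 is bird 68) and 2 female libraries (female 1 is bird 52, female 2 is bird 120). Each library comes from a different bird. The other 20 libraries come from the lower and upper follicle sheath, the pulp, the collar epithelium and the papilla ectoderm of the same 4 birds, and they served to estimate the spread and to choose gene lists. The labels give no treatment, breed or exact age for either sex. With 2 birds per sex, sex and anything else by which these males differ from these females cannot be told apart.

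The dermal papilla is a small condensation of connective tissue cells at the base of the feather follicle. It persists through moults, signals to the overlying epithelium, and is needed for a new feather to grow. The sickle feathers of the cock's tail are long and curved, and the form of many feathers in chickens differs between the sexes under the influence of sex hormones. In birds the female carries the Z and W sex chromosomes and the male a pair of Z chromosomes, so W-linked genes are present in females alone. Dosage compensation of the Z chromosome in birds is known to be partial.

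Total counts were 24642116 and 26339907 in males 1 and 2, and 23647152 and 27466651 in females 1 and 2, within a range over the series of 12514383 to 31404619. The 4 libraries were thus of like depth, and 1 count was worth 0.0363 to 0.0408 CPM (counts relative to library size, after TMM scaling). The numbers of genes with at least 1 count were 14568 and 14604 in the males and 14843 and 14797 in the females. The 10 most abundant genes took 9.45% to 11.5% of the counts. The 2 males were most like each other (Spearman rho over genes 0.984), whereas both females were closer to male 2 (rho 0.968 for female 1 and 0.976 for female 2) than to each other (0.967). Outside the dermal papilla, the closest library of each was a lower sheath. It came from the same bird for males 1 and 2 and female 1 (rho 0.949, 0.945 and 0.958). For female 2 it came from male 2 (rho 0.930).

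The files identify genes by Ensembl number only and do not pair these numbers with names. None of them could be matched to the reference table, so the usual markers of the papilla could not be read. The tissue label was instead checked by choosing papilla genes in the birds of one sex and reading them in the other. In the males, 7 genes exceeded 5 CPM and 5 times every other male library in both dermal papilla libraries. In both female papillae all 7 were also above every female library of the other 5 tissues. By the 5-fold rule 2 of the 7 passed there. The mean of the female papillae exceeded the highest such library by a median of 5.97-fold. With over 5 CPM, 955 genes, or 6.78% as a share of the number tested, lay above all other tissues in that way. The 3 genes chosen in the females were likewise above all other tissues in both male papillae, and 2 of the 3 passed the 5-fold rule. Their median ratio was 8.76-fold, and the background was 585 genes, or 4.16%. A gene that meets the rule in both sexes is in both lists, so the 2 checks can share genes and are not independent.

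Material of neighbouring tissues was read from genes restricted to one of the other 5 tissues, chosen without papilla values. The 10 genes restricted to the collar epithelium reached a median of 1.17% of the collar mean in female 1. Their medians were 0.0219% in male 1, 0.0191% in male 2 and 0.0228% in female 2. Female 1 thus stood apart from the other 3 libraries in collar genes, with a summed level of 47.2 CPM against 1.47 to 2.28 CPM. The 30 genes restricted to the lower sheath were at medians of 0.125% to 0.241% in the 4 libraries, and 3 genes restricted to the pulp were at 1.03% to 2.54%. A single gene met the rule for the upper sheath and 0 for the papilla ectoderm. In such bulk tissue, fewer cells of a type and less RNA per cell cannot be told apart.

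Most genes with a mean of at least 1 CPM differed by less than 2-fold between male and female papillae. Of 14077 genes tested, 56 differed between the sexes (0.398%), 19 higher in males (0.135%) and 37 higher in females (0.263%), at an adjusted p under 0.05 by edgeR's quasi-likelihood test. Of the 11938 genes with a mean of at least 1 CPM, 93.3% differed by less than 1 on the log2 scale, with 296 further up in males and 504 further up in females. These are fitted folds, which do not require both birds of a sex to lie above the other sex. Some of them, in either direction, rested on a high level in a single library. The excess of 504 over 296 was not tested. At an unadjusted p under 0.05 there were 816 genes (5.8%), against 704 expected if no gene differed. So few calls do not show that the other genes are alike. In simulated counts the test called 10 of 100 genes with a known log2 difference of 1, and 85 of 100 at a difference of 3. It also made 9 false calls among genes simulated with no difference. The simulated libraries were independent, with no shared effect of a bird. Leaving out male 1 gave 2 male-higher and 32 female-higher genes, and leaving out male 2 gave 19 and 32. Leaving out female 1 gave 1 and 33, and leaving out female 2 gave 3 and 37.

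**Figure D1:**
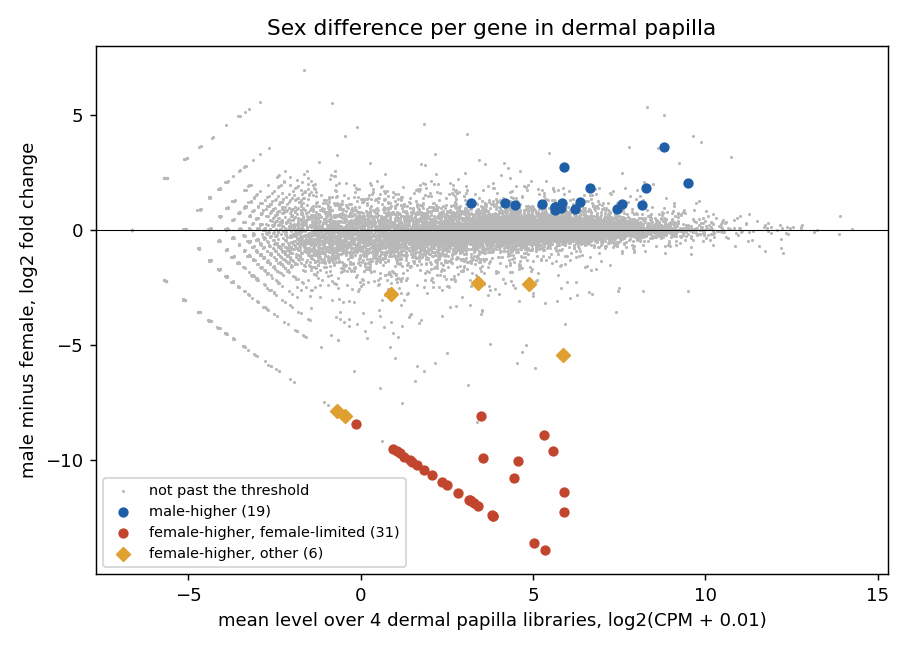
Each point is one of the 14077 genes tested, with its mean level over the 4 dermal papilla libraries on the horizontal axis, as log2(CPM + 0.01), and the log2 fold change, male minus female, on the vertical axis. The 19 male-higher genes lie between 0.86 and 3.58, and the female-limited genes lie far below the cloud at -8.09 or lower, where fitted values of genes with 0 counts in males depend on the prior count of the model.

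The distance between a male and a female papilla was larger than that between the 2 males, but overlapped with that between the 2 females. The median absolute difference per gene, on the log2(CPM + 1) scale, was 0.20 between the 2 males and 0.23 between the 2 females. For the 4 pairs of a male and a female it ran from 0.23 to 0.28. Differences of more than 2-fold on that scale were found in 488 genes between the males and in 733 genes between the females. The 4 mixed pairs had 638, 722, 919 and 1034 such genes, and the highest values, 919 and 1034, were those with female 1. The 4 mixed pairs therefore overlapped with the female pair. The mixed pairs likewise overlapped with a same-sex pair in the lower sheath, the collar and the papilla ectoderm. They lay above both same-sex pairs in the pulp, at 769 to 940 genes against 282 and 251, and in the upper sheath, at 704 to 845 against 541 and 282.

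**Figure D2:**
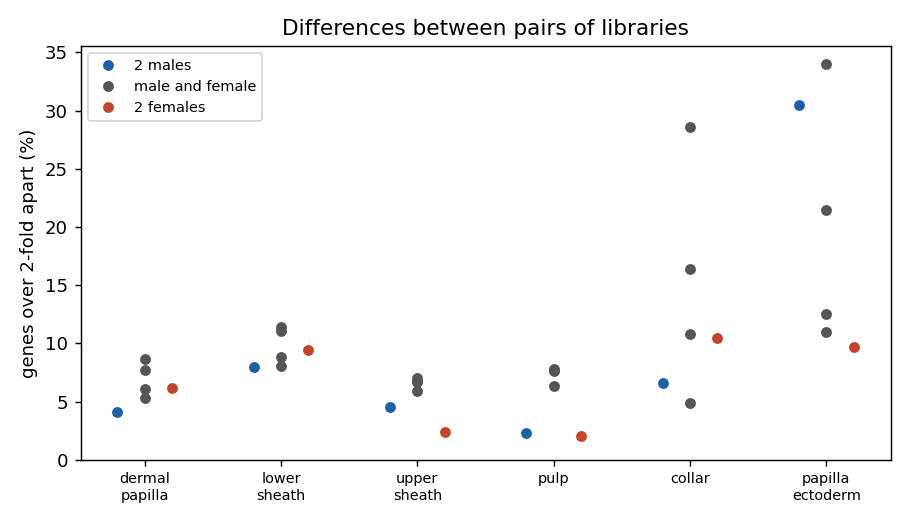
The percentage of genes over 2-fold apart, on the log2(CPM + 1) scale, is shown for each pair of libraries of a tissue, with blue points for the pair of males, red points for the pair of females and grey points for the 4 male and female pairs. In the dermal papilla the mixed pairs, at 5.34% to 8.66%, span the female pair at 6.14%, and the male pair is lowest at 4.09%.

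The largest differences belonged to genes that were nearly absent from male tissue. A list of 31 female-limited genes was chosen in the other 5 tissues alone: at least 1 CPM in each of the 10 female libraries and more than 5 times the highest of the 10 male libraries. All 31 passed the filter on low counts, which the floor of 1 CPM in the female libraries made near certain. All 31 were higher in female dermal papilla by edgeR's test, where 0.263% of all genes were. The papilla libraries had no part in the choice, but they come from the same birds. The spread in that test came mostly from the 20 libraries used for the choice, so the calls are not independent of it. With the 4 papilla libraries fitted alone, 22 of the 31 were called. The summed level of the 31 genes was 929 CPM in female 1 and 988 CPM in female 2, from 23898 and 27251 counts, which is 0.101% and 0.0992% of each library. The male papillae held 12 and 13 counts in all 31 genes together, or 0.490 and 0.478 CPM.

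The ratio of the 2 females lay within 1.5-fold for 31 of 31 of these genes. The share of all genes within 1.5-fold was not taken. Of the genes with a mean of at least 1 CPM, 6.14% were over 2-fold apart between the females on the log2(CPM + 1) scale. Like levels in the 2 females were thus not shown to be particular to these genes. Mean female levels ran from 1.79 to 119 CPM with a median of 18.2 CPM. Of the 31 genes, 23 had 0 counts in both male papillae, and their female levels were at least 30.8-fold to at least 1387-fold higher, taking 3 counts over both male libraries as the floor. With those genes at their bound, the median log2 difference, male minus female, was -8.26. The other 8 had counts in a male, at most 8 in the males together. By mean level over the libraries of a tissue, 20 of the 31 were highest in the collar epithelium and 5 in the dermal papilla.

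ENSGALG00000000386.3, the female-limited gene with the smallest p, stood at 124 and 113 CPM in females 1 and 2, and at 0 and 0.0735 CPM in males 1 and 2. The females held 6284 counts and the males 2. The ratio of scaled counts was 3049 (exact Clopper-Pearson 95% interval 844 to 25179.9, counting error only), with an adjusted p of 1.12e-08 by edgeR. It stayed below the threshold under each alternative run, with adjusted p from 2.96e-24 to 0.00457.

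A further 5 genes were higher in all 10 female than in all 10 male libraries of the other tissues without meeting the female-limited rule, and 4 of them were tested. All 5 had 0 counts in both male papillae. Only 2 of them were called in the dermal papilla, the other 2 tested having 25 and 9 female counts. ENSGALG00000028014.1 had 0 counts in each male papilla and 36 and 40 counts in the females, or 1.40 and 1.45 CPM. Its level was at least 24.6-fold higher in females (floor of 3 counts over both male libraries, adjusted p = 0.00212 by edgeR). With the 4 papilla libraries fitted alone its adjusted p was 0.20.

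Male-biased genes differed by much less. In the other 5 tissues, 21 genes had all 10 male libraries above all 10 female ones, and all 21 were tested. In the dermal papilla both males lay above both females in 21 of the 21, where 18.5% of all genes had that order. The choice was made in tissues of the same birds, so the order in the papilla is not independent of it. The log2 difference of the 21 genes, male minus female, ran from 0.48 to 1.14 with a median of 0.90, against a median of -0.04 over all genes tested. By the test across all genes 7 of the 21 passed in the papilla and the other 14 did not. Their male levels ran from 2.69 to 399 CPM, so the list was not made of scarce transcripts. Its medians in the other tissues, where the genes were chosen, were 0.79 to 0.88.

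**Figure D3:**
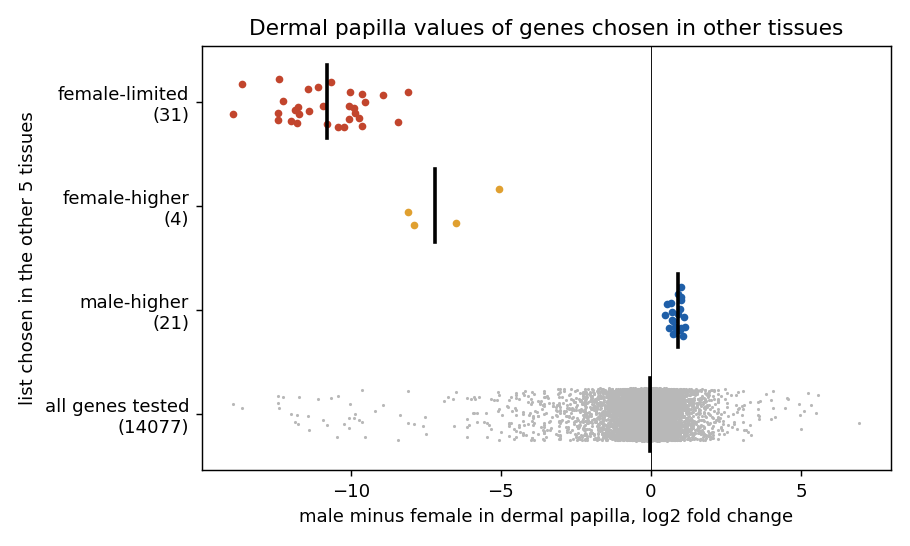
The log2 fold change in the dermal papilla, male minus female, is plotted for genes chosen in the other 5 tissues and for all 14077 genes tested, with a black bar at each median. The 21 male-higher genes form a narrow band from 0.48 to 1.14, whereas the 31 female-limited genes lie at -8.09 or lower.

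The 19 genes that were higher in male dermal papilla were split into a narrow group and a few with larger folds. The split, at a log2 difference of 1.5, was set after the values were seen. The threshold on adjusted p tends to leave out smaller differences, so the range of the narrow group comes in part from selection. By contrast, the list of 21 chosen without papilla values ran from 0.48 to 1.14. For 14 of the 19 genes the difference was 0.86 to 1.19, close to a doubling. Their levels were 12.04 to 399 CPM in males and 5.36 to 199 CPM in females. The other 5 had differences of 1.80 to 3.58, at 85.9 to 1525 CPM in males and 15.9 to 289 CPM in females. Several of the 5 differed widely between males 1 and 2, at 1174 and 460, 670 and 300, and 1525 and 800 CPM. Another was alike in both, at 157 and 154 CPM. Most calls of the 14 were lost whichever single papilla library was left out. Those of the 5 held without male 2, but most or all were lost without male 1, female 1 or female 2. With the 4 papilla libraries fitted alone, 1 of the 5 and 0 of the 14 were called. In the 19 genes both males lay above both females, an order found in 18.5% of all genes. The 19 were called on these same libraries, so that order follows from their choice. Of the 14, 7 were in the list of 21 chosen in the other tissues, and of the 5 none was.

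ENSGALG00000014661.4, the male-higher gene with the smallest p, stood at 69.7 and 63.0 CPM in males 1 and 2 and at 30.3 and 35.7 CPM in females 1 and 2. The means were 66.4 ± 4.77 and 33.0 ± 3.82 CPM (SD, n = 2 birds per sex), a log2 difference of 1.01 ± 0.15 (SE, adjusted p = 0.00296 by edgeR). ENSGALG00000004353.4 was nearly identical in level, at 67.2 and 66.2 CPM in the males and 30.5 and 36.2 CPM in the females. Its log2 difference was 0.999 ± 0.16 (SE, adjusted p = 0.00537 by edgeR). Non-overlap of the sexes was a condition for naming both genes, and they were taken by smallest p, so their separation adds no support. The fold hardly moved when a bird was left out, but the call did: the adjusted p of the first gene became 0.0635 without male 1 and 0.141 without female 1. That of the second became 0.0665 without male 1, 0.0508 without male 2 and 0.203 without female 1, and both reached 0.231 with the 4 papilla libraries alone.

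The narrow group had the same direction throughout the follicle. For the 14 genes, all 70 values in the other 5 tissues were positive, from 0.21 to 1.59. Of them 9 passed the test in the lower sheath, 9 in the upper sheath, 10 in the pulp, 3 in the collar and 11 in papilla ectoderm. In those tissues 0.185%, 0.298%, 0.483%, 0.17% and 0.796% of all genes were called higher in males. The tissues come from the same 4 birds as the papillae, so these values are not independent of the papilla calls. Also, 7 of the 14 genes were in the list chosen by male-higher order in those tissues. The share of all genes with a positive value was not taken. The 5 genes with larger folds were less uniform: 22 of their 25 values in other tissues were positive, and they ran from -1.03 to 3.58. In the lower sheath 3 of the 5 passed the test, in the upper sheath 2, in the pulp 1, in the collar 0 and in papilla ectoderm 3.

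**Figure D4:**
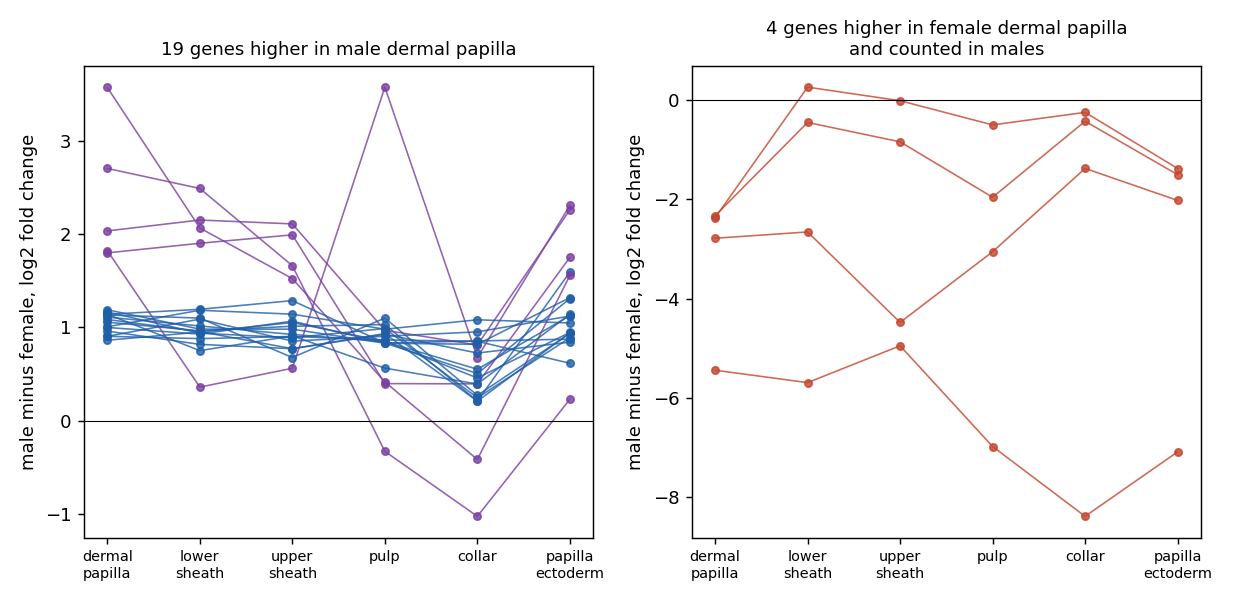
Lines join the log2 fold change, male minus female, of one gene across the 6 tissues; the left panel holds the 19 genes higher in male dermal papilla, with those under 1.5 in blue and the other 5 in purple. The right panel holds the 4 genes higher in female dermal papilla that were also counted in males, and the blue lines stay above 0 in all tissues whereas 2 of the purple lines fall below it in the collar.

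Beyond the female-limited genes and the 2 scarce genes without male counts, 4 genes were higher in female papilla. Each had counts in both males, at 0.326 to 9.67 CPM, and stood at 2.57 to 135 CPM in females. Their log2 differences, male minus female, ran from -2.33 to -5.45, with adjusted p from 0.00868 to 0.0434 by edgeR. In the other 5 tissues 19 of their 20 values were negative, and 7 of the 20 passed the test: 1 in the lower sheath, 2 in the upper sheath, 2 in the pulp, 1 in the collar and 1 in the papilla ectoderm. Of all genes, 0.298%, 0.291%, 0.469%, 0.76% and 1.24% were called higher in females in those tissues. The tissues come from the same 4 birds, so the 20 values are not independent of the papilla calls. Of the 7 calls, 5 belonged to 1 gene, called in all 5 tissues, and 2 to another, and the remaining 2 genes were called in none. The number of female-higher genes outside the list of 31, which is 6 with these 4 and the 2 scarce genes, fell to 1 without male 1 or without male 2, and to 2 without female 1.

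Whether the sex difference in the papilla departs from that in the rest of the follicle was tested gene by gene, as the difference in the dermal papilla minus the mean difference in the other 5 tissues. By edgeR's quasi-likelihood test 0 of 14077 genes passed (0.0%), with 238 genes at an unadjusted p under 0.05 (1.69%), fewer than the 704 expected if none differed. DESeq2 and limma voom also called 0 genes, with 326 and 322 at an unadjusted p under 0.05. With the bird as a block, which uses the pairing of tissues within a bird, edgeR called 0 genes as well, with 319 at an unadjusted p under 0.05. None of the sex differences found in the papilla was thus shown to be particular to it. That so few genes passed does not show that the tissues are alike. In simulated counts this comparison called 9 of 100 genes with a known log2 difference of 1, and 82 of 100 at a difference of 3, with 4 false calls. The cause of the shortfall against 704 was not tested. No shortfall was seen when 3 libraries of other tissues were left out, a fit with a single library in some groups. The test could also not judge some genes with 0 counts in the male papillae. For ENSGALG00000028014.1 the SE of this difference was 1173 (log2, unadjusted p = 0.99965 by edgeR).

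The genes with the smallest unadjusted p in that comparison are given as values, 2 in each direction, among those whose sexes did not overlap in the papilla and whose higher sex reached 1 CPM. ENSGALG00000008661.3 stood at 1174 and 460.1 CPM in male papillae and at 69.8 and 67.2 CPM in female ones. The 2 males differed widely from each other while the females were nearly equal. In the lower sheath the gene reached 1528 ± 142 CPM in males and 365 ± 11.1 CPM in females (SD, n = 2). In the upper sheath it stood at 1518 ± 259.5 and 528 ± 322 CPM. In the collar it was near 0, at 2.24 ± 0.305 and 3.002 ± 0.483 CPM. Its papilla difference exceeded the mean of the other tissues by 2.55 ± 0.64 on the log2 scale (SE, unadjusted p = 0.00118, adjusted p = 0.99998 by edgeR). That value was 1.72 without male 1 and 3.04 without male 2.

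ENSGALG00000002549.4 was likewise most abundant in the sheaths, with its highest mean in the lower one. It stood at 122 and 85.9 CPM in male papillae and at 15.9 and 16.0 CPM in female ones. In the lower sheath males had 232 ± 29.6 CPM and females 41.2 ± 8.66 CPM (SD, n = 2), which also passed the test there (adjusted p = 0.0359 by edgeR). Its papilla difference exceeded the mean of the other tissues by 2.10 ± 0.53 (SE, log2, adjusted p = 0.99998 by edgeR), but that of the lower sheath by only 0.21 (adjusted p = 0.99997). Both genes are at their highest in the sheaths, whose restricted genes were read in the papilla libraries as above. The 30 genes of the lower sheath stood at medians of 0.171% and 0.125% in males 1 and 2 and at 0.22% and 0.241% in females 1 and 2. The single gene of the upper sheath stood at 0% and 0.113% in the males and at 0.0171% and 0.0479% in the females. The part of sheath material in these differences was not tested.

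On the female side, ENSGALG00000004596.4 stood at 64.2 and 33.6 CPM in females 1 and 2 and at 9.67 and 9.26 CPM in males 1 and 2. The female birds differed nearly 2-fold, yet both lay well above the males (log2 difference -2.37 ± 0.44, SE, adjusted p = 0.0221 by edgeR). In the lower sheath the order was the other way, at 28.4 ± 0.503 CPM in males and 23.6 ± 2.61 CPM in females (SD, n = 2), and in the upper sheath the means were 22.8 ± 2.82 and 22.9 ± 10.5 CPM. In the papilla ectoderm and the pulp both females lay above both males, as in the dermal papilla, with log2 differences of -1.38 and -0.50, and the collar value was -0.24. None of these 5 differences passed the test. Its papilla difference minus the mean of the other tissues was -1.999 ± 0.47 (SE, log2, unadjusted p = 0.000689, adjusted p = 0.99998 by edgeR).

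ENSGALG00000027887.1 was the other gene on that side. It stood at 17.2 and 25.2 CPM in female papillae and at 2.73 and 0.955 CPM in male ones, a log2 difference of -3.53 ± 0.73 (SE) that just missed the threshold (adjusted p = 0.0528 by edgeR). The sheaths held far more of it in both sexes, at 119 ± 39.7 and 133 ± 59.1 CPM in the lower sheath of males and females and at 181 ± 50.5 and 202 ± 19.6 CPM in the upper sheath (SD, n = 2). Its papilla difference minus the mean of the other tissues was -3.09 ± 0.78 (SE, log2, adjusted p = 0.99998 by edgeR), and -4.01 without male 1.

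**Figure D5:**
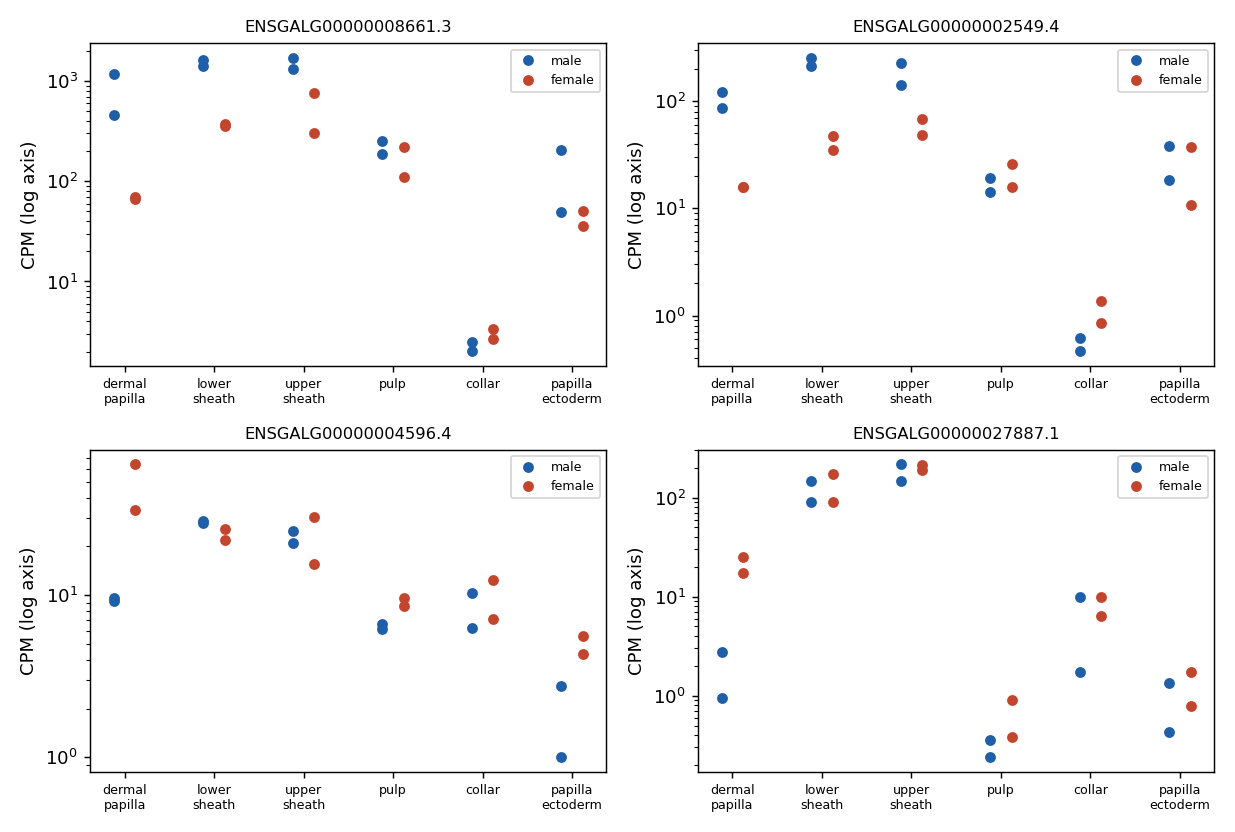
Levels in CPM on a log axis are shown for the 4 genes with the smallest unadjusted p in the comparison of the papilla with the other tissues; each point is a library, blue for males and red for females, with 2 birds per sex and tissue. In ENSGALG00000008661.3 and ENSGALG00000002549.4 the male papillae lie above the female ones, in ENSGALG00000004596.4 and ENSGALG00000027887.1 below them.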

How the data were processed

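RNA of 6 follicle tissues from 2 male and 2 female chickens was extracted with TRIzol and made into polyadenylated libraries with the Illumina TruSeq kit, version 2, per the labels' protocols. Per the file headers, each deposited file gives a raw count for each of 17108 Ensembl identifiers. The submitters' processing notes name STAR 2.4.1d, HTSeq 0.6.0, edgeR and the build galGal4. The sources used here do not give the annotation release, strand setting or read filters, so counts of overlapping, antisense or near-identical genes are uncertain. The reference table (25635 rows, another assembly) matched 0 identifiers, so the lists by symbol were not used.

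In R 4.3.3, edgeR 4.0.16 (TMM, filterByExpr with a minimum count of 10, glmQLFit, glmQLFTest) was fitted with a mean for each of 12 groups over the 24 libraries, which leaves 12 residual degrees of freedom. It tested 14077 genes, and the genes left out held 0.00878% of counts. Benjamini-Hochberg adjustment ran over all genes tested, with a threshold of 0.05. The tissues of a bird enter this fit as independent, so the spread rests on fewer birds than libraries. The sexes are different birds, so nothing pairs male with female libraries. For the comparison between tissues the tissues of a bird are paired by the labels. The difference between the 2 birds of a sex in the papilla correlated over genes with that in each other tissue at r = 0.148 to 0.453 in males and 0.00251 to 0.657 in females. Within-sex papilla libraries differed by far more than counting noise (median chi-square per gene 6.09 and 8.47), so none was deposited more than once. Scripts were tested on simulated data.

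Alternatives were DESeq2 1.42.0, limma 3.58.1 (voom), RLE scaling, no filter, other sets of libraries and other list rules. Named genes were at most 2 per direction, by smallest p, with adjusted p under 0.05, sexes not overlapping and at least 1 CPM in the higher sex. On the female side 1 was taken from the female-limited list and 1 from outside it. The 4 genes named for the comparison with other tissues do not meet the threshold and were taken after their values were seen. Members, lists and tests were chosen with earlier results of these data known. SE values were computed from the F statistic. Intervals and floors cover counting error only.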

Additional observations from a re-analysis of the deposited data

Results flagged for a closer look

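In 3 cases a named gene had both birds of one sex above both of the other in the dermal papilla and the opposite order in another tissue. ENSGALG00000008661.3 and ENSGALG00000002549.4, higher in male papilla, were lower in males in the collar epithelium, with log2 differences of -0.42 and -1.03, male minus female. The collar levels were low, at 2.03 to 3.34 CPM for the first and 0.468 to 1.37 CPM for the second. Neither collar difference passed the test (adjusted p 0.735 and 0.374 by edgeR), and the papilla difference minus the collar difference, a test added after seeing the data, was 3.99 and 3.74 with an adjusted p of 0.391 for each. ENSGALG00000004596.4, higher in female papilla, was higher in males in the lower sheath, with a log2 difference of 0.27 (adjusted p 0.979). The papilla difference minus that of the lower sheath was -2.64 (adjusted p = 0.99997 by edgeR).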

How the results depend on the processing

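The 31 female-limited genes stayed called under every alternative for the sex difference except the 4 papilla libraries alone, which called 22 of them. Counts outside them moved. Male-higher and female-higher genes, and then the female-higher ones outside the list, numbered 19, 37 and 6 as reported, 111, 89 and 58 by DESeq2, 35, 43 and 12 by limma voom with a random effect for the bird, 3, 24 and 2 with the 4 papilla libraries alone, and 38, 37 and 6 with papilla, lower sheath and pulp only. Leaving out 3 libraries of other tissues (lower sheath of female 1, papilla ectoderm of male 1, collar of female 2) gave 77, 46 and 15. RLE scaling and no filter gave 17, 37 and 6 each. With one papilla library left out, the lone library being assumed to vary like the other groups, they ran from 1 to 19, from 32 to 37 and from 1 to 6. Without male 2 there were 19 male-higher genes, of which 7 were among the 19 reported. The causes were not tested.

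For the papilla against the other 5 tissues, the count was 0 in both directions under every alternative but one. With the collar alone as reference (added after seeing the data) 1 gene passed, ENSGALG00000012327.4, named after its values were seen. Its log2 difference, male minus female, was -0.06 in the papilla and -4.24 in the collar. The call thus reflects higher collar levels in females, not a male excess in the papilla. Its papilla levels were 38.6 and 29.4 CPM in males and 31.1 and 39.7 CPM in females, and its collar levels 0.308 and 0.234 CPM in males against 4.96 and 5.36 CPM in females. The animal as a replicate block changed no call.

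Lists chosen without the collar and papilla ectoderm held 178 male-higher genes (median log2 0.73) and 64 female-higher genes (median -0.76). In the papilla both males lay above both females in 157 of the 177 male-higher genes tested, against 18.5% of all genes. The log2 differences of these 177 ran from -0.68 to 4.47. Both females lay above both males in 39 of the 53 female-higher genes tested, against 20.7% of all genes, with log2 differences from -8.11 to 0.19. These lists were chosen in tissues of the same birds, so neither order in the papilla is independent of the choice. With a mean of at least 5 CPM the female-limited median was -11.25 and 0 female-higher genes were left, since fewer genes meet that rule. At 3 times in place of 5, 19 and 22 papilla genes were chosen in males and females. Of these, 18 and 20 lay above all other tissues in both papillae of the other sex. At 20 times in place of 10, collar-restricted genes numbered 3 and pulp-restricted genes 0. The collar means were then 0.0414% in males and 1.80% in females, the latter from 3.57% in female 1 and 0.0199% in female 2, and the lower sheath mean in females was 0.169%.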

Other observations

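Among the 14 male-higher genes with a log2 difference under 1.5 in the dermal papilla, the median male excess was lowest in the collar epithelium. The median log2 difference was 0.53 there, against 0.96 in the lower sheath, 0.92 in the upper sheath, 0.88 in the pulp and 0.997 in the papilla ectoderm. For 6 of the 14 the collar was also the tissue with the highest mean level. The difference between the collar and the other tissues was not tested for the group, and the genes were chosen by their papilla values.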
